A study of Oryza sativa with 36 samples.

Results

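The subject is the root of fertilised rice seedlings, in which the hybrid LYP9 was set against each of its parents, 9311 and PA64s, and against their mean. RNA was hybridised to an Affymetrix rice array, and the comparison uses 9 of the study's 36 arrays, 3 for each genotype. All 57194 probe sets that are no controls were used, of 57381 on the array. As background and not from the labels, LYP9 is the first-generation hybrid of PA64s, a male-sterile line whose fertility depends on day length and temperature and which serves as the female parent, and of the indica inbred line 9311. After 5 days in nutrient soil, seedlings of all 3 genotypes were moved to 12 barrels with poor soil, 15 per variety and barrel. When the plants were 14 days old, 6 barrels received urea and compound fertiliser, 10 g of each. These are the nutrient-sufficient plants, also termed heterotic in the labels, and the barrels without fertiliser gave the nutrient-deficient plants. The 9 root arrays and 18 leaf arrays outside the comparison serve here only to look at the same probe sets again. Whether the 3 arrays of a genotype represent separate plants or barrels is not stated in the labels. The p-values therefore measure only the spread between these samples, which may be technical. Whole roots were sampled, and fewer cells of a type and less RNA per cell cannot be told apart.

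A first-generation hybrid carries 1 genome copy from each parent. If both copies are transcribed as they are in the parent, the transcript level lies at the arithmetic mean of the parents, which is called additive. A level at the higher parent is called high-parent dominance, a level at the lower parent low-parent dominance, and a level beyond either parent overdominance. The arithmetic mean of unequal levels always lies above their mean on the log2 scale, and by more the further apart they are. Both scales are therefore given. A second property of the array matters throughout: its short probes were designed on reference rice sequence, so a parental difference in transcript level and a parental difference in probe sequence cannot be told apart from these values.

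As whole transcriptomes the 3 hybrid arrays lay between those of the parents, and only replicate 3 was clearly closer to PA64s. Pearson correlations of log2 values over all probe sets ran from 0.9735 to 0.987 between arrays of 1 genotype. LYP9 arrays correlated with PA64s arrays at 0.9664 to 0.9801 and with 9311 arrays at 0.9592 to 0.9776, ranges that overlap. For replicate 3 of LYP9 these ranges were 0.9771 to 0.9798 and 0.9592 to 0.9731. For replicate 1 they were 0.9672 to 0.9767 and 0.9681 to 0.9771, and for replicate 2 0.9664 to 0.9801 and 0.9725 to 0.9776. Arrays of the parents correlated with each other at 0.9327 to 0.9605. Principal components were taken on the 34316 probe sets with the highest means only. The first component held 54.3% of their variance and ordered the genotypes, with 9311 at -74.3 to -43.5, LYP9 at -6.16 to 24.4 and PA64s at 30.4 to 70.4. Replicate 3 of LYP9, at 24.4, was the hybrid array nearest to PA64s, and replicate 1 of PA64s, at 30.4, was the PA64s array nearest to the hybrid.

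**Figure D1:**
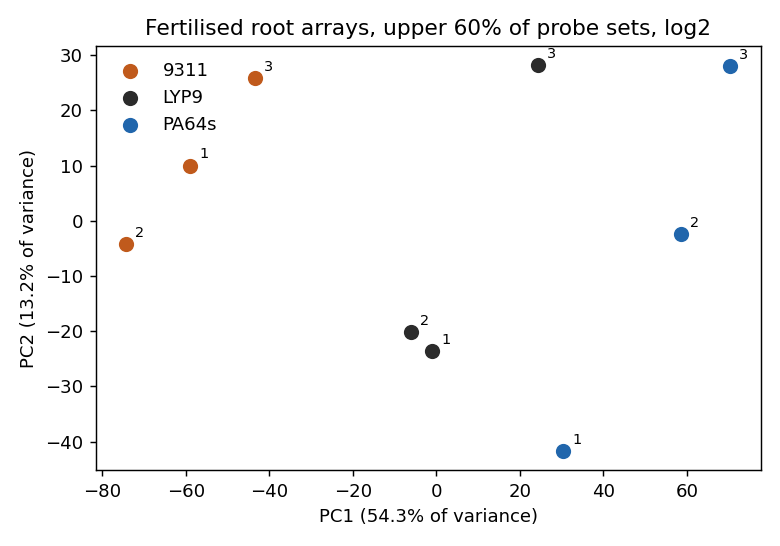
Each point is 1 fertilised root array, numbered by replicate. It is placed by the first (x axis) and second (y axis) principal component of log2 values at the 34316 probe sets with the highest means. The 3 LYP9 arrays lie from -6.16 to 24.4 on the first component, between 9311 (-74.3 to -43.5) and PA64s (30.4 to 70.4).

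The tissue label was checked with marker genes. The mean of 7 root genes, from families of silicon, nitrate and iron uptake among others, was 8.56 to 10.33 log2 units on the 18 root arrays and 5.91 to 6.38 on the 18 leaf arrays. The mean of 7 photosynthesis genes was 5.42 to 6.57 in root and 11.28 to 12.24 in leaf. Within the fertilised root, that photosynthesis mean was 5.71 to 6.57 in 9311, 5.55 to 5.91 in LYP9 and 5.42 to 5.58 in PA64s, so that its group means ran in the order of the genotypes on the first principal component while 9311 and LYP9 ranges overlapped. Its part in the results below was not tested. Array medians lay between 65.97 and 74.48 intensity units, and 1 to 11 values per array sat at the floor of 1.

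Differences were tested with limma across all 57194 probe sets, and a probe set is called where its Benjamini-Hochberg adjusted p is under 0.05. LYP9 was called different from 9311 at 919 probe sets (1.61%), of which 809 (1.41%) were higher in the hybrid and 110 (0.192%) lower. From PA64s it differed at 757 (1.32%), 405 higher (0.708%) and 352 lower (0.615%). The parents differed from each other at 7596 probe sets (13.3%), with 9311 higher at 3698 (6.47%) and lower at 3898 (6.82%). Centring each array on its median changed that split, with 9311 higher at 34.4% of 6909 calls instead of 48.7%. In the unfertilised root the same parents differed at 2093 probe sets (3.66%). The count of parental calls moved by over 1.5 times when some arrays were left out: it was 3283 without replicate 2 of 9311, 3784 without replicate 2 and 3980 without replicate 3 of PA64s, and 12022 without replicate 1 of PA64s. It was 3862 when the 9 fertilised root arrays alone were fitted and 2039 when a difference of at least 1 log2 unit was required as well. The 919 became 1681 without replicate 3 of 9311, and the 757 became 459 without replicate 2 of LYP9, 482 without replicate 2 of PA64s and 501 without replicate 3 of PA64s.

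Among the 7596 probe sets at which the parents differed, the LYP9 mean lay between the parental means at 7379 (97.1%). It was nearer to PA64s at 4193 (55.2%) and nearer to 9311 at 3403 (44.8%) on the log2 scale. With the parental range scaled from -1 at PA64s to +1 at 9311, the median position of the hybrid was -0.06. Most of these positions could not be assigned statistically: at 6245 of the 7596 LYP9 was called different from neither parent, at 609 from 9311 only, at 442 from PA64s only and at 300 from both. The median parental difference was 0.69 log2 units, and the median standard error of a mid-parent deviation was 0.14.

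The parent that the hybrid resembled was read from the deviation from the log2 mid-parent, tested directly. LYP9 resembled 9311 at 86 probe sets (0.15%) and PA64s at 212 (0.371%), was intermediate at 199 (0.348%) and stayed unresolved at 7099 (12.4%). Here resembling means that the parents were called different and the deviation was called toward that parent. Intermediate means that LYP9 lay between the parents and was called different from both with no deviation called. Large parental differences were themselves uneven. Of the 7596 probe sets with parents called different, 336 had parents over 3 log2 units apart, with PA64s higher at 242 and 9311 at 94. At all 212 probe sets where the hybrid resembled PA64s, PA64s was the higher parent, and at 78 of the 86 where it resembled 9311, 9311 was the higher parent. The hybrid thus resembled the lower parent at 8 probe sets, in each case 9311. A hybrid at the arithmetic mean itself lies above the log2 mid-parent. Resemblance to the higher parent by this rule therefore cannot tell an additive level from high-parent dominance. From the linear mid-parent the median deviation was 0.34 log2 units at the 86 probe sets, 0.19 at the 212 and -0.14 at the 199 intermediate ones. Without replicate 1 of LYP9 the 86 became 38 and without replicate 2 of LYP9 it became 52, while the 212 ranged from 157 to 210 over the 9 fits that left out 1 array. The count of intermediate probe sets was 83 without replicate 2 of LYP9, 115 without replicate 2 of PA64s and 122 without replicate 3 of PA64s. No probe set switched from one parent to the other in any of these alternatives.

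Few of these probe sets belong to genes with a name, 4.65% of those resembling 9311, 0.943% of those resembling PA64s and 1.51% of the intermediate ones, against 5.58% of all probe sets. TPP7, an enzyme of trehalose metabolism (trehalose-6-phosphate phosphatase) known in rice for its part in germination under water, was high in 9311 and in the hybrid. Its intensity was 240, 253 and 386 on the 9311 arrays, 248, 182 and 246 on the LYP9 arrays and 19, 14.3 and 15.2 on the PA64s arrays. LYP9 and 9311 arrays overlapped, and all lay far above PA64s. LYP9 minus PA64s was 3.80 ± 0.42 log2 units (SE, adjusted p = 3.96e-05), and the deviation from the log2 mid-parent was 1.72 ± 0.36 (adjusted p = 0.0399). From the linear mid-parent it was 0.56 ± 0.41 log2 units (adjusted p = 1). The log2 mid-parent call was lost in 12 of 19 alternative settings, with adjusted p up to 0.273. A second probe set of TPP7 stood at 7.05, 6.63 and 5.04 log2 units in 9311, LYP9 and PA64s (parental adjusted p = 5.78e-07), and its mid-parent deviation was not called.

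CCS1 followed the same pattern. Its intensity was 146, 122 and 210 in 9311, 128, 116 and 105 in LYP9 and 14.8, 20.5 and 23.3 in PA64s. The hybrid stood 2.60 ± 0.21 log2 units above PA64s (adjusted p = 1.26e-06) and 1.09 ± 0.18 above the log2 mid-parent (adjusted p = 0.00549). From the linear mid-parent it deviated by 0.41 ± 0.20 log2 units, which was not called. The 9311 and LYP9 arrays overlapped. In fertilised leaf its levels were 10.24, 10.49 and 10.50 log2 units in 9311, LYP9 and PA64s.

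SDH3-2, a subunit of succinate dehydrogenase in the mitochondrial electron transport chain, was a case of resemblance to PA64s. It read 121, 161 and 148 in 9311, 836, 744 and 590 in LYP9 and 1130, 877 and 832 in PA64s. The hybrid was 2.33 ± 0.20 log2 units above 9311 (adjusted p = 5.55e-07), and the highest LYP9 array overlapped the lowest PA64s array. Its deviation was 0.97 ± 0.17 from the log2 mid-parent (adjusted p = 0.00973) and 0.41 ± 0.19 from the linear one (adjusted p = 1). The same order of genotypes held in unfertilised root, at 6.52, 9.27 and 9.88 log2 units, and in fertilised leaf, at 5.65, 8.67 and 9.23.

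AO-4 was the other named gene of that class, through 1 of its 4 probe sets. This probe set read 2.2, 2.44 and 2.27 in 9311, near the floor of the array, 35.3, 34.8 and 22.3 in LYP9 and 47.5, 49.8 and 61.5 in PA64s. The hybrid was above the log2 mid-parent by 1.46 ± 0.25 (adjusted p = 0.00551), a call lost in 4 of 18 alternative settings, and the size is uncertain because 9311 was so dim. Every LYP9 array lay below every PA64s array, and the deviation from the linear mid-parent was 0.14 ± 0.28 log2 units and not called. The other 3 probe sets of AO-4 gave no parental call.

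Intermediate levels on the log2 scale are shown by IRL5, BGLU33 and OsC3H49. From the linear mid-parent they deviated by -0.43 ± 0.15, -0.31 ± 0.12 and -0.15 ± 0.15 log2 units, toward the lower parent, with none of these deviations called. IRL5, a leucine-rich repeat protein, read 48, 45.6 and 52.2 in 9311, 162, 170 and 223 in LYP9 and 489, 450 and 403 in PA64s. The hybrid was 1.92 ± 0.15 log2 units above 9311 (adjusted p = 1.85e-07), and its difference from PA64s was -1.28 ± 0.15 (adjusted p = 9.2e-05), with no overlap of arrays. A brighter second probe set of IRL5 showed no parental call, at 9.33, 9.01 and 9.32 log2 units in 9311, LYP9 and PA64s. BGLU33, a beta-glucosidase, read 19.7, 25.7 and 27.3 in 9311, 49, 37.8 and 45.9 in LYP9 and 77.4, 92 and 87.7 in PA64s. The 3 groups did not overlap, and the position was 0.05 on the scale from -1 to +1. OsC3H49, a zinc-finger protein, ran the other way, at 309, 441 and 510 in 9311, 260, 225 and 280 in LYP9 and 167, 149 and 141 in PA64s. Its calls against 9311 (adjusted p = 0.0381) and against PA64s (adjusted p = 0.0295) were lost in 10 and 7 of 19 alternative settings, with adjusted p up to 0.193 and 0.166.

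**Figure D2:**
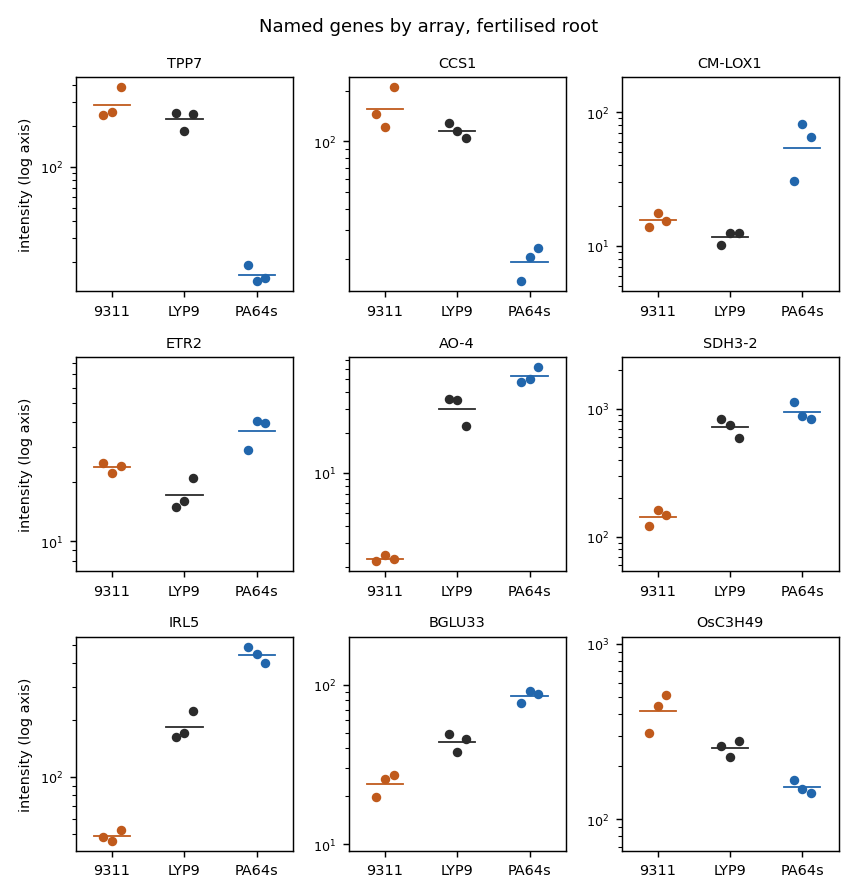
Intensity on a log axis for 9 named genes, 1 point per fertilised root array and a bar at the geometric mean of 3 arrays per genotype. LYP9 lies with 9311 for TPP7 and CCS1 and overlaps PA64s for SDH3-2. For AO-4 it lies below PA64s but nearer to it than to 9311 on the log axis. It lies between the parents for IRL5, BGLU33 and OsC3H49, and at or below 9311, the lower parent, for CM-LOX1 and ETR2.

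At 3 probe sets with very large parental differences, each dim in 1 parent, the hybrid stood at roughly the arithmetic mean. They were picked after their values were seen and do not stand for all large differences. Probe set Os.47127.1.A1_at read 1970, 2910 and 2830 in 9311, 1960, 1460 and 1530 in LYP9 and 1.4, 3.41 and 2.84 in PA64s. LOC4326061, by the probe set with the largest difference, read 6.26, 5.44 and 10.4 in 9311, 458, 562 and 541 in LYP9 and 887, 861 and 1060 in PA64s. Its neighbour on the chromosome, LOC4326058, read 19.4, 12.8 and 30.3 in 9311, 1210, 1150 and 1440 in LYP9 and 2710, 2160 and 2420 in PA64s. In each of these the hybrid was far above the dim parent, by a size that is uncertain because those arrays read near the floor of 1 or little above it. Its deviation from the linear mid-parent was between 0.05 and 0.37 log2 units, with standard errors from 0.21 to 1.02. The log2 mid-parent call of Os.47127.1.A1_at was lost in 8 of 19 alternative settings, and those of the neighbours held in all 19. Both neighbours kept this pattern in fertilised leaf, where LOC4326058 stood at 3.98, 11.29 and 11.98 log2 units in 9311, LYP9 and PA64s.

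The 2 scales of the mid-parent gave different counts. From the log2 mid-parent LYP9 deviated at 301 probe sets (0.526%), 290 above (0.507%) and 11 below (0.0192%). From the linear mid-parent it deviated at 7 (0.0122%), all below. Unadjusted p was under 0.05 at 1975 probe sets for the log2 and at 1504 for the linear mid-parent, against 2860 that uniform p-values would give. Without replicate 1 of LYP9 the 301 became 200, and the 7 became 2 without replicate 1 or 2 of LYP9 or replicate 2 or 3 of PA64s and 4 without replicate 3 of 9311.

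All 290 probe sets above the log2 mid-parent had parents called different, by a median of 3.84 log2 units. Their median deviation was 1.22 log2 units, and a hybrid at the arithmetic mean of the same parental levels would have deviated by a median of 1.02. The lower parent was below 5.70 log2 units, the level that separates the dimmest 40% of probe sets, in 235 of the 290. LYP9 arrays were separate from those of the lower parent in all 290 and overlapped those of the higher parent in 89. Relative to the linear mid-parent the median deviation of these probe sets was 0.24 log2 units, with 249 above and 41 below, and the 95% interval of a single deviation reached a median of 0.39 to either side. It excluded 0 upward in 82 and downward in 2.

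Because those 290 were chosen by the deviation itself, the same relation was described on probe sets chosen by the parental calls in the unfertilised root, whose arrays are separate. Where PA64s was the higher parent by 2 to 3 log2 units there, 187 probe sets, the fertilised hybrid stood 0.54 above the log2 mid-parent, and the arithmetic mean predicted 0.53. At 1 to 2 log2 units, 408 probe sets, the values were 0.18 and 0.17, and at 0 to 1, 491 probe sets, both were 0.05. At 3 to 4 log2 units, 101 probe sets, they were 1.05 and 0.91. Where PA64s was higher by over 4, 97 probe sets, they were 1.58 and 1.44, and 79 of the 97 lay above the linear mid-parent. Where 9311 was the higher parent by over 4, 30 probe sets, they were 1.93 and 1.54, with 21 of 30 above the linear mid-parent. By 3 to 4 log2 units, 55 probe sets, they were 1.22 and 0.90, with 41 of 55 above the linear mid-parent. By 2 to 3 log2 units, 78 probe sets, they were 0.61 and 0.45. By 1 to 2, 269 probe sets, they were 0.24 and 0.14, and by 0 to 1, 377 probe sets, 0.08 and 0.04. On the linear scale the hybrid had thus moved 49.2% to 57.4% of the way from the lower to the higher parent where PA64s was higher, and 53.3% to 59.3% where 9311 was higher, as medians of these classes of probe sets.

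**Figure D3:**
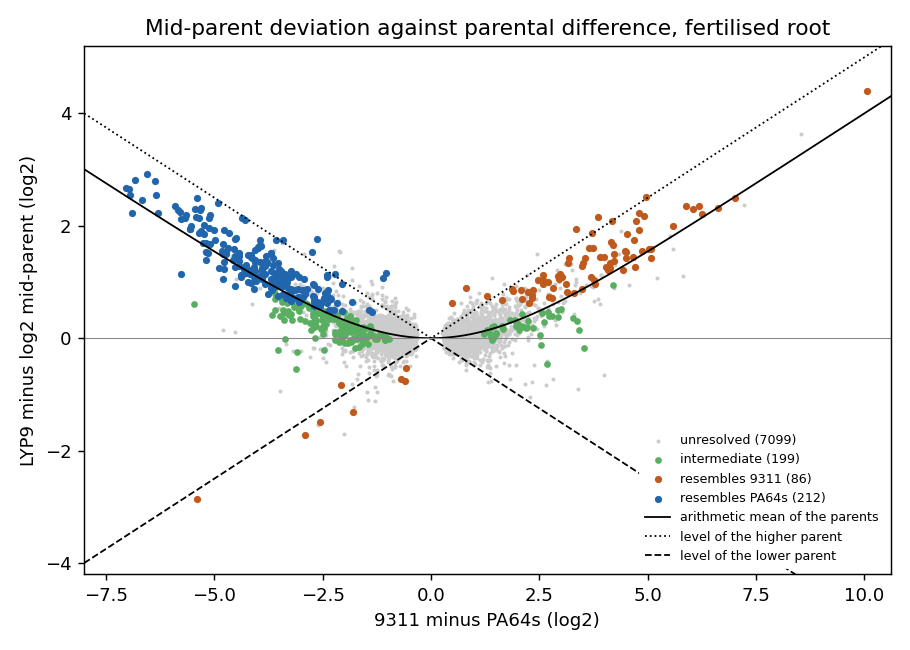
Each point is a probe set with parents called different in fertilised root: the x axis is 9311 minus PA64s and the y axis LYP9 minus the log2 mid-parent, both in log2 units. The solid curve marks a hybrid at the arithmetic mean of its parents, the dotted and dashed lines one at the level of the higher or lower parent. Of the 212 probe sets resembling PA64s and 78 of the 86 resembling 9311, 249 lie above the curve and 41 below it. The other 8 resembling 9311 lie near or beyond the line of the lower parent.

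At 8 probe sets the hybrid deviated toward 9311 although PA64s was higher. Its mean was slightly above that of 9311 at 1 of them, LOC4327742, and below it at the other 7, with no difference from 9311 called at any of the 8 (LYP9 minus 9311 from -0.47 to 0.20 log2 units, adjusted p from 0.312 to 0.829). The clearest was OsAffx.22999.1.S1_at, which has no gene in the annotation used. It read 80.2, 71.9 and 98.4 in 9311, 71.2, 80 and 69.1 in LYP9 and 2040, 4200 and 4910 in PA64s. The hybrid and 9311 overlapped, and every PA64s array lay far above both. LYP9 minus PA64s was -5.57 ± 0.26 log2 units (adjusted p = 2.74e-09). The deviation was -2.87 ± 0.22 from the log2 mid-parent (adjusted p = 1.01e-06) and -4.60 ± 0.25 from the linear mid-parent (adjusted p = 9.81e-08). These 3 calls held in all 19 alternative settings. On the arrays that the comparison did not use the order was the same. In unfertilised root the levels were 6.27, 6.24 and 12.12 log2 units in 9311, LYP9 and PA64s, in fertilised leaf 6.40, 6.40 and 9.78, and in unfertilised leaf 6.55, 6.37 and 8.38.

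The other 7 of this kind were smaller or dimmer. OsAffx.27843.1.S1_at read 10.1, 12.3 and 10.2 in 9311, 10.1, 8.49 and 9.28 in LYP9 and 52.4, 61.4 and 78.8 in PA64s. The hybrid lay within or below the 9311 range. The deviation from the log2 mid-parent was -1.50 ± 0.20 (adjusted p = 0.000545), and from the linear mid-parent it was also called (adjusted p = 0.00184), with a size that is uncertain at these dim levels. In unfertilised root it kept the pattern, at 3.27, 3.09 and 5.56 log2 units, while in fertilised leaf the hybrid lay between the parents, at 6.03, 6.77 and 9.43. LOC4327742 read 20.3, 22.1 and 33.4 in 9311, 25.6, 25.2 and 35.6 in LYP9 and 90.7, 100 and 124 in PA64s, and its deviation from the linear mid-parent was -1.18 ± 0.17 (adjusted p = 0.0372). That call was lost in 7 of 18 alternative settings, with adjusted p up to 0.292. Of the 7 linear calls, these 3 were among the 8. Another was at Os.46431.1.S1_at, where the hybrid was intermediate, at 48.4, 56.4 and 61.4 in 9311, 424, 671 and 614 in LYP9 and 2380, 2380 and 2500 in PA64s. There the linear deviation was -1.15 ± 0.17 (adjusted p = 0.0372), a call lost in 12 of 19 alternative settings.

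CM-LOX1, a lipoxygenase of the family that starts oxylipin and jasmonate synthesis, belonged to the same 8. It read 13.9, 17.5 and 15.3 in 9311, 10.2, 12.5 and 12.5 in LYP9 and 30.3, 81.8 and 64.6 in PA64s. LYP9 minus PA64s was -2.21 ± 0.31 log2 units (adjusted p = 0.000614), and the deviation from the log2 mid-parent was -1.31 ± 0.27 (adjusted p = 0.033), a call lost in 12 of 18 alternative settings with adjusted p up to 0.667. In unfertilised root its 3 levels were close together, at 3.97, 3.49 and 3.85 log2 units. ETR2, an ethylene receptor, read 24.9, 22.2 and 24.2 in 9311, 14.9, 16.1 and 20.9 in LYP9 and 28.9, 40.6 and 39.9 in PA64s, so that the LYP9 arrays lay below both parents. LYP9 was called different from PA64s (-1.08 ± 0.18 log2 units, adjusted p = 0.00302) but not from 9311 (-0.47 ± 0.18, adjusted p = 0.312). Its log2 mid-parent call (adjusted p = 0.0266) was lost in 8 of 18 alternative settings. A far brighter probe set of ETR2 stood at 9.14, 9.14 and 9.71 log2 units, with the hybrid at the level of 9311 and no deviation called. LOC4345349, LOC4340413 and LOC4338795 complete the 8, with deviations of -1.72, -0.73 and -0.53 log2 units from the log2 mid-parent.

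A level outside the parental range was called at 1 probe set, below both parents, and none was called above both. Without replicate 1 of LYP9 there were 3 such calls, 2 of them above both parents, and without replicate 3 of 9311, replicate 2 of LYP9 or replicate 1 of PA64s there were 2, below both. OsAffx.20943.1.S1_at (0.00175% of probe sets) read 13.1, 15 and 13.9 in 9311, 8.13, 5.95 and 6.9 in LYP9 and 13.6, 12 and 11.5 in PA64s. The LYP9 arrays were below all others, with differences of -1.01 ± 0.16 log2 units from 9311 (adjusted p = 0.00106) and -0.83 ± 0.16 from PA64s (adjusted p = 0.0102). The signal was dim, and the unfertilised root showed no such gap, at 3.66, 3.62 and 3.71 log2 units. At 2 further probe sets the hybrid was below the log2 mid-parent without a parental call. LOC4325479 read 69, 72.1 and 60.8 in 9311, 43.6, 36.9 and 39.6 in LYP9 and 57.1, 88.4 and 82.9 in PA64s, so that the hybrid arrays were again the lowest. It deviated by -0.83 ± 0.17 (adjusted p = 0.0312), a call lost in 10 of 18 alternative settings, and its difference from 9311 did not pass (adjusted p = 0.0758).

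Probe sets of the same gene did not always give the same parent. Of 294 genes with several probe sets called between the parents, 31 (10.5%) had calls in opposite directions, and of 64 genes with several calls over 1 log2 unit 8 (12.5%) did. LOC4324010 was represented by Os.20714.1.S1_at, which read 1080, 1010 and 1410 in 9311, 672, 778 and 652 in LYP9 and 21.7, 16.1 and 15.6 in PA64s. Its probe set Os.8761.2.S1_at read 66.3, 68.4 and 84.6 in 9311, 329, 448 and 487 in LYP9 and 894, 764 and 880 in PA64s. By the first the hybrid resembled 9311 (deviation 2.29 ± 0.39, adjusted p = 0.00612) and by the second PA64s (0.75 ± 0.14, adjusted p = 0.0122). These mid-parent calls were lost in 1 and 4 of 19 alternative settings, with adjusted p up to 0.054 and 0.121, while the opposite parental calls held in all 19. On both, LYP9 was near the arithmetic mean, with linear deviations of 0.25 ± 0.45 and -0.14 ± 0.15 log2 units.

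LOC4337923 showed the same opposition. Os.22560.1.A1_at read 536, 625 and 480 in 9311, 305, 278 and 236 in LYP9 and 4.74, 5.42 and 6.42 in PA64s. Os.5838.1.S1_at read 42.7, 53.2 and 53.1 in 9311, 389, 348 and 309 in LYP9 and 523, 517 and 491 in PA64s. Parental differences were thus 6.63 ± 0.49 and -3.37 ± 0.12 log2 units for probe sets of a single gene (adjusted p = 3.4e-08 and 2.5e-12). For LOC4341407 they were 1.69 ± 0.19 on Os.13590.1.S1_at and -3.61 ± 0.23 on Os.12667.1.S1_at. Which parent the hybrid resembles at such genes is a statement about the probe set, and the gene's own level is uncertain.

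**Figure D4:**
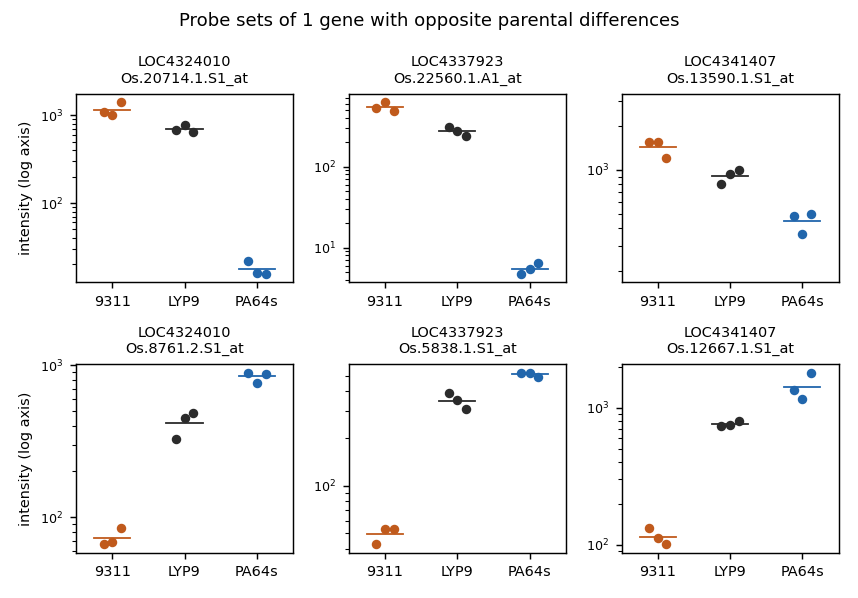
Intensity on a log axis for 2 probe sets of each of 3 genes, 1 point per fertilised root array and a bar at the geometric mean of 3 arrays per genotype. The upper row has 9311 highest and the lower row PA64s highest, and LYP9 lies between the parents in all 6 panels.

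Gene groups matched by symbol showed how the hybrid stood where many related genes differed modestly between the parents. Counts are read against the 6.47% and 6.82% of probe sets with 9311 called higher and lower. The groups hold named genes only, with 1 probe set each. Of all 2458 named genes, 146 were called higher and 206 lower in 9311. Of 26 genes of RNA silencing and chromatin, which make and use small RNAs or modify histones and DNA, 10 were lower in 9311 and none higher. Their median was -0.49 log2 units, against -0.02 over all named genes and 0.09 over all probe sets. The hybrid mean lay between the parents in 23 of the 26, against 1575 of the 2458 named genes and 35514 of all 57194 probe sets. Among the 7596 probe sets with parents called different it did so at 97.1%. Such counts therefore set none of the groups below apart. DCL2A, a Dicer-like nuclease that cuts double-stranded RNA, read 409, 249 and 491 in 9311, 672, 825 and 951 in LYP9 and 1160, 1450 and 1810 in PA64s. The 3 groups did not overlap, and LYP9 was 1.13 ± 0.26 log2 units above 9311 (adjusted p = 0.0288), a call lost in 6 of 19 alternative settings. Its difference from PA64s was -0.84 ± 0.26 (adjusted p = 0.173). AGO18, an Argonaute protein with a role in antiviral defence in rice, read 86.8, 109 and 138 in 9311, 152, 223 and 252 in LYP9 and 474, 429 and 346 in PA64s.

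Of 68 genes of the cell cycle, DNA replication and histones, 19 were lower in 9311 and 1 higher, with the hybrid between the parents in 57. ORC5, a subunit of the complex that marks replication origins, read 47.4, 52 and 53.5 in 9311, 87.5, 81.9 and 86.1 in LYP9 and 111, 147 and 163 in PA64s. Its position was -0.03 on the scale from -1 to +1. OsMCM6, a subunit of the replicative helicase, read 102, 70.3 and 117 in 9311, 180, 149 and 155 in LYP9 and 159, 208 and 258 in PA64s. The hybrid overlapped PA64s, and the parental difference was -1.11 ± 0.19 log2 units (adjusted p = 0.000976). Of 12 genes in the circadian clock list, which also takes in heading-date genes such as Hd1, 6 were lower in 9311. The hybrid lay between the parents in all 12. PRR73, a pseudo-response regulator of the clock, read 687, 527 and 829 in 9311, 1020, 936 and 1160 in LYP9 and 1300, 1290 and 1560 in PA64s. Of 17 MAP kinase genes 4 were lower in 9311.

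Other groups were higher in 9311. Of 25 aquaporins, the channels for water and small solutes, 7 were higher in 9311 and none lower, with a median of 0.40 log2 units and the hybrid between the parents in 20. PIP2-5, a plasma membrane water channel, read 2880, 2690 and 1820 in 9311, 2200, 1850 and 992 in LYP9 and 1120, 895 and 351 in PA64s. Replicate 3 was the lowest of each group, and the groups overlapped between neighbours only. DTE1, the boron channel NIP3-1, read 140, 185 and 215 in 9311, 141, 127 and 60.4 in LYP9 and 70.6, 48.6 and 40.9 in PA64s. Of 24 cytosolic ribosomal protein genes 7 were higher in 9311, and of 38 glutathione transferases and glutaredoxins 8 were higher and 1 lower. Of 34 lignin and phenylpropanoid enzymes 5 were higher. Of 20 genes listed as peroxidases, among them the peroxiredoxin PRXIIE-1, 4 were higher. GRXS9, a glutaredoxin, read 1720, 2610 and 2360 in 9311, 693, 1170 and 979 in LYP9 and 687, 325 and 251 in PA64s. It was 2.52 ± 0.35 log2 units higher in 9311 than in PA64s (adjusted p = 9.26e-05), with the hybrid at a position of 0.01.

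In none of these groups was a member called as deviating from the log2 mid-parent. Such calls were made at 0.526% of all probe sets, and among 2458 named genes at 3 above and 1 below. Groups of this size would have few or none at that share, so the missing calls say little about them. Over all 39 lists 2 members were called, TPP7 among 69 genes of starch and sugar metabolism and CM-LOX1 among 49 of ethylene, jasmonate and strigolactone. The parental counts were less steady. When single arrays were left out, members lower in 9311 ranged from 2 to 14 for RNA silencing and chromatin, from 4 to 25 for the cell cycle and from 1 to 6 for the clock, and from 1 to 5 for MAP kinases. Members higher in 9311 ranged from 3 to 9 for aquaporins, from 1 to 9 for ribosomal proteins, from 3 to 11 for glutathione transferases and glutaredoxins, from 1 to 10 for lignin and phenylpropanoid enzymes and from 1 to 6 for peroxidases. After quantile normalization and after median centring the ribosomal proteins had 3 to 4 called higher, the glutathione transferases and glutaredoxins 5 to 6 and the peroxidases 2 to 4, and the medians of these 9 groups kept their sign. In the unfertilised root 1.41% of all probe sets were higher and 2.24% lower in 9311. There 2 members were lower in RNA silencing and chromatin, and 2 lower and 1 higher in the cell cycle. Glutathione transferases and glutaredoxins and lignin and phenylpropanoid enzymes had 1 higher each, and the other groups had none called. Median parental differences there were -0.12 log2 units for RNA silencing, -0.06 for the cell cycle, 0.01 for the clock and -0.002 for MAP kinases. They were -0.0005 for aquaporins, 0.03 for ribosomal proteins and for glutathione transferases and glutaredoxins, -0.06 for lignin enzymes and -0.03 for peroxidases. All were smaller in size than in fertilised root.

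**Figure D5:**
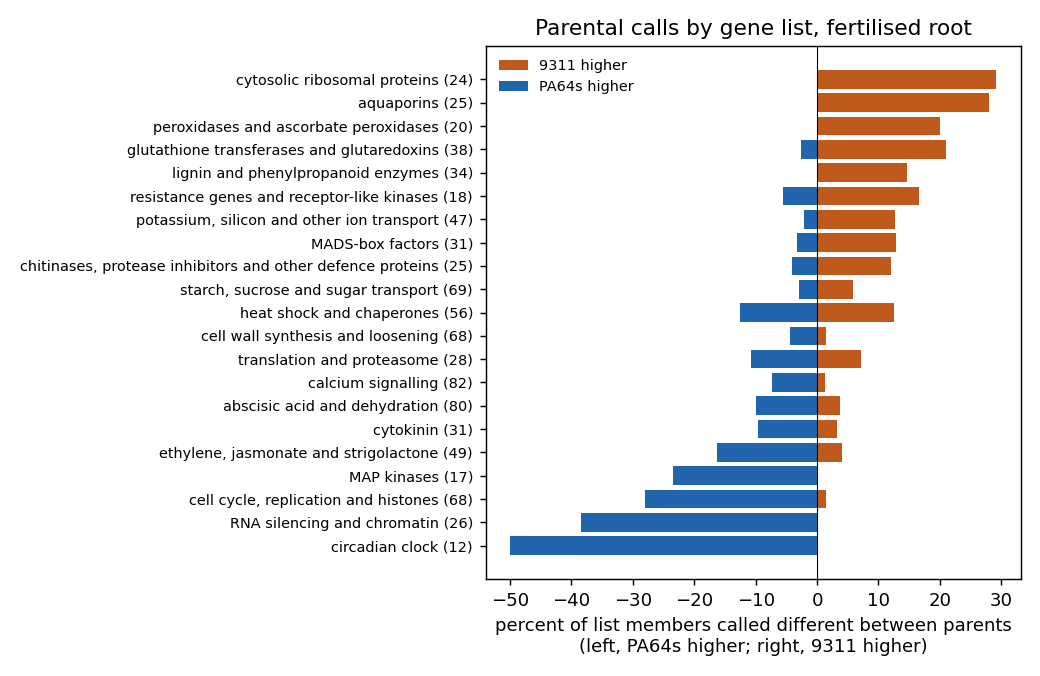
Bars give the percent of each gene list called different between the parents in fertilised root, PA64s higher to the left and 9311 higher to the right, for lists with at least 4 calls and with the number of genes in brackets. RNA silencing and chromatin (10 of 26) and the cell cycle (19 of 68) lean to PA64s, aquaporins (7 of 25) and ribosomal proteins (7 of 24) to 9311.

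At some nutrient and hormone genes the hybrid was called different from 1 parent only, which does not make it equal to the other. IRT2, an iron transporter, read 397, 1030 and 789 in 9311, 232, 241 and 473 in LYP9 and 52.9, 51.6 and 48.2 in PA64s. The hybrid overlapped 9311 and was 2.55 ± 0.38 log2 units above PA64s (adjusted p = 0.000932). LYP9 minus 9311, -1.20 ± 0.38, did not pass (adjusted p = 0.178). OsPP2C16, a protein phosphatase of the family that acts in abscisic acid signalling, read 29.4, 33.1 and 54.6 in 9311, 134, 123 and 131 in LYP9 and 154, 227 and 211 in PA64s. The hybrid was 1.78 ± 0.19 above 9311 (adjusted p = 8.46e-06). LYP9 minus PA64s, -0.59 ± 0.19, did not pass (adjusted p = 0.214), though the arrays did not overlap. GH3.9, of the enzymes that join auxin to amino acids, read 132, 140 and 147 in 9311, 106, 89.8 and 79.4 in LYP9 and 74, 66.2 and 69.4 in PA64s, and LYP9 minus 9311 was -0.62 ± 0.11 (adjusted p = 0.00464). Its difference from PA64s, 0.38 ± 0.11, did not pass (adjusted p = 0.15). None of these 3 was assigned to a parent by the mid-parent test.

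The same probe sets were classed again on the arrays outside the comparison. Of the 212 probe sets resembling PA64s, 164 fell into the same class in unfertilised root, 134 in fertilised leaf and 128 in unfertilised leaf. Of the 86 resembling 9311 the counts were 36, 42 and 41, and in unfertilised root 39 were unresolved and 8 intermediate. In none of the 3 other sets of arrays did a member of either class resemble the opposite parent. The deviation of the 290 probe sets above the log2 mid-parent had the same sign in all 290 in unfertilised root, with 198 called there. It did in 271 in fertilised leaf with 174 called, and in 278 in unfertilised leaf with 169 called. Of all probe sets 0.372%, 0.542% and 0.633% were called in these 3 sets of arrays. A test of the deviation in fertilised against unfertilised root called none of 57194 probe sets, with unadjusted p under 0.05 at 1080. The median standard error of that difference was 0.20 log2 units, so that differences of that size between nutrient states were not detectable with 3 arrays a group.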

How the data were processed

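Values came as linear array intensities, never below 1, which the authors deposited for 57381 probe sets on 36 arrays. RMA and affy appear in the submitters' processing notes, with no role or version, and the scaling is not stated in the labels. Intensities were log2 transformed with no further scaling. Dropping 187 control probe sets gave 57194, of which 22436 match 1 gene symbol in the platform annotation, 95 several and 34663 none listed. All 17905 genes were found in the reference gene table, which gives a name to 2458. No positions are printed, as the build behind the probes is unknown here.

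In R 4.3.3 with limma 3.58.1, group means were fitted to the 18 root arrays (lmFit) and tested 2-sided with eBayes and a mean-variance trend, with 12 residual and 4.76 prior degrees of freedom. Benjamini-Hochberg adjustment covered all 57194 probe sets. The linear mid-parent deviation is log2 of the LYP9 geometric mean over the arithmetic mean of the parents' geometric means, with a delta-method SE. Leaf arrays were fitted apart. Errors beside differences are limma standard errors, n = 3 arrays a group, a number that limits the precision. The scripts were tested on simulated data, and no arrays were identical.

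Named genes are called probe sets with 1 named gene and no overlap between the arrays compared, up to 6 per class by size and up to 3 per gene list. Probe sets without a gene name were picked after their values were seen. The comparison, the rules and the 39 lists (symbol patterns, 1 probe set per gene) were chosen with earlier results of these data known, and 131 genes matching a pattern by letters only were removed after the files were seen. Same-numbered arrays of different genotypes had deviations correlated at -0.218 to 0.356, so the numbers were not taken to pair arrays. Alternatives covered scaling, dim probe sets, an offset of 16, eBayes options, arrays fitted, a replicate block, a minimum of 1 log2 unit and each array left out.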

Additional observations from a re-analysis of the deposited data

How the results depend on the processing

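Fitted on the 9 fertilised root arrays alone, 3862 probe sets differed between the parents, 3 from the linear mid-parent, and 112 were intermediate. Requiring 1 log2 unit left 571 calls against 9311, 370 against PA64s, 2039 between the parents, 57 intermediate and 0 outside the parental range. The filter on dim probe sets left 478 against PA64s, 126 intermediate, 3 from the linear mid-parent and 0 outside the range. Linear mid-parent calls were 4 after quantile normalization, 4 after median centring and 2 with limma on linear intensities. With the replicate number as a block, they were 4, with 2 outside the range and 8905 between the parents, and the other counts moved by under 1.5 times. Leaving out single arrays gave 662 to 1681 calls against 9311, 459 to 991 against PA64s, 3283 to 12022 between the parents, 200 to 311 from the log2 mid-parent and 2 to 6 from the linear one. It gave 1 to 3 outside the range (2 of the 3 above both parents), 38 to 96 resembling 9311, 157 to 210 resembling PA64s and 83 to 238 intermediate. The causes were not tested. Of 5468 values for 291 calls at single probe sets, 852 lost the call and 0 changed direction. The median standard error of a difference between genotypes was 0.16 log2 units with 3 arrays a group, against a median parental difference of 0.69 among the 7596 called, which limits how many could be assigned.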
